A study of Mus musculus with 135 samples.

Results

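BXD75 is 1 recombinant inbred mouse line, and its cardiomyocytes are described here against the cardiomyocytes of the 2 strains it descends from, across all 23809 H3K4me3 peaks that were counted in this cell type. The samples were chosen by label: 3 libraries of BXD75, 3 of C57BL/6J (B6) and 3 of DBA/2J (D2), 9 of the 135 samples of the study. All came from female mice 8 weeks old, with no transgene or treatment in the labels, and chromatin was cut with MNase and precipitated with 1 lot of H3K4me3 antibody (Millipore 07-473, lot 2746331). Libraries were made with the KAPA kit. The labels do not say whether the 3 libraries of a strain came from separate animals, so p-values measure the spread between these libraries, which may be technical. The study as a whole holds 123 H3K4me3 and 12 input samples of germ cells, embryonic stem cells, hepatocytes and cardiomyocytes. Hepatocytes used below also came from mice 8 weeks old, germ cells from younger mice and stem cells from embryos. The germ cell libraries used below were precipitated with another antibody lot. The study followed how the genotype of the strains and of BXD lines moves with this mark. BXD87, another line of the same cross with 3 cardiomyocyte libraries, entered the fit and is given beside single peaks.

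Trimethylation of lysine 4 on histone H3 is laid down by the SET1 and MLL family of methyltransferases around the start sites of active and poised genes, most densely at promoters rich in CG dinucleotides. BXD lines were made by crossing B6 and D2 mice and inbreeding their descendants, so that each line is a fixed mosaic in which every locus carries 2 copies of the B6 or of the D2 allele. Where a difference between the founders is due to sequence close to the peak, a mosaic line takes the level of the founder whose allele it carries; where a factor encoded elsewhere acts, it can take the other level or stand outside both. Genotypes of the line were not used here.

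Sequencing depth differed between the strains. The 3 BXD75 libraries held 7149901, 7185091 and 7650966 reads in peaks, the B6 libraries 8338075, 6839220 and 8243351, and the D2 libraries 4104501, 4035233 and 2618483. Values per library below are counts per 1e+06 reads in peaks (CPM), with each library's total adjusted by edgeR's TMM scaling factor. Differences are fitted log2 differences with their SE from edgeR's quasi-likelihood test. A peak is called where the Benjamini-Hochberg adjusted p over all peaks is under 0.05. Of the peaks, 12568 lay within 1 kb of an annotated start site and are called promoter peaks. By their names, 8908 peaks were found on both of the genomes the authors used, 14804 on the reference genome mm10 alone and 97 on the second genome alone.

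BXD75 replicate 1 stood apart from the other BXD75 libraries. Across all peaks the correlation of log2 CPM between BXD75 libraries ran between 0.915 and 0.982, against 0.953 to 0.986 within B6 and 0.972 to 0.980 within D2. B6 replicate 2 correlated at 0.962 to 0.965 with the D2 libraries, and at 0.972 and 0.953 with B6 replicates 1 and 3. When peaks were ranked by mean level into 5 equal classes, the highest class took 52.8, 56.2 and 54.8% of the reads of BXD75 replicates 1, 2 and 3, against 54.6 to 55.0% in the B6 libraries and 51.0 to 52.3% in the D2 libraries. Replicate 1 was therefore the BXD75 library nearest to the D2 range on this measure, and the main counts below are also given without it. Of 20 sarcomere genes, 14 had a counted promoter peak, and Myh6, Myh7, Myl7, Actc1, Tnnt2 and Tcap had none. The summed level of the 14 was 1704 to 1810 CPM in BXD75 libraries, 1786 to 2013 CPM in B6 libraries and 1368 to 1406 CPM in D2 libraries. No other cell type was set beside these sums, so they do not check the labelled cell type. Markers of other cells were also present in every library: 8 of 11 endothelial genes had a promoter peak, with sums of 1175 to 1460, 1286 to 1502 and 1331 to 1414 CPM in BXD75, B6 and D2 libraries.

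The reference sequence of 7 promoters is shown because their peaks carry the main patterns described below: higher in BXD75 than in B6 (Cntfr, Nid1, H2-T23 and Zfp994), above both founders (Slc22a5) and lower than in B6 (Cyfip2 and Art4). Each is the RefSeq window of GRCm38.p6 that runs from 250 bases before a start site to 50 bases after it, read on the strand of the gene, with every CG dinucleotide in capitals. They are B6 sequence, and the D2 sequence was not used here.
Cntfr, chr4:41695876-41696175, minus strand: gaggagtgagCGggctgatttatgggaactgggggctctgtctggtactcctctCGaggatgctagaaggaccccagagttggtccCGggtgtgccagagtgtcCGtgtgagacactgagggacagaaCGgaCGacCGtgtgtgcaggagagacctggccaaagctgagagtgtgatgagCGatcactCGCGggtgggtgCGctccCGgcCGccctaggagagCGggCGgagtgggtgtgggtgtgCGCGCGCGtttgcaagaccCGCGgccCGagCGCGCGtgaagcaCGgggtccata
Nid1, chr13:13437352-13437651, plus strand: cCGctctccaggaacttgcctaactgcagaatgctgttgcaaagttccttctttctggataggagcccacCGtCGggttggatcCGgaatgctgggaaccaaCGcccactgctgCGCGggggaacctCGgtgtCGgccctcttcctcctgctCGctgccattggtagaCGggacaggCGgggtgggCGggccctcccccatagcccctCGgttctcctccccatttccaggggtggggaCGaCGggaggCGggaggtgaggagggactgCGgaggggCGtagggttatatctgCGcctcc
H2-T23, chr17:36032652-36032951, minus strand: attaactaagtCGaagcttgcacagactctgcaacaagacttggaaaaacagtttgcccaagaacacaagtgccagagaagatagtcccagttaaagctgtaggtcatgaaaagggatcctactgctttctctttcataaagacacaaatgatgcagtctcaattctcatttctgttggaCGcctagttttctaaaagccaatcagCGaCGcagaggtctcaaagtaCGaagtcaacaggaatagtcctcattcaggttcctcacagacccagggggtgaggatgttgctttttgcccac
Zfp994, chr17:22225565-22225864, minus strand: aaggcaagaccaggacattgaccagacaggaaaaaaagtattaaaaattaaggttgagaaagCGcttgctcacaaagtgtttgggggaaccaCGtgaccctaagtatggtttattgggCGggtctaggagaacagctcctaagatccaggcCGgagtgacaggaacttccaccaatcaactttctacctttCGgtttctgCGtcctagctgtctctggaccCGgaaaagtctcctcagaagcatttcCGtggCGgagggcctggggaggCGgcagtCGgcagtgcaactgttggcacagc
Slc22a5, chr11:53891654-53891953, minus strand: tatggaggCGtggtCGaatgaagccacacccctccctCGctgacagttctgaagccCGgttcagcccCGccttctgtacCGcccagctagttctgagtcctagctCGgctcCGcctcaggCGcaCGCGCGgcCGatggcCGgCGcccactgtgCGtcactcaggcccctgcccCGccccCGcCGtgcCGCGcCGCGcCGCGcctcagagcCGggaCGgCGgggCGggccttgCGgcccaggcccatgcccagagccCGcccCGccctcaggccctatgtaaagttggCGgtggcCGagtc
Cyfip2, chr11:46312309-46312608, minus strand: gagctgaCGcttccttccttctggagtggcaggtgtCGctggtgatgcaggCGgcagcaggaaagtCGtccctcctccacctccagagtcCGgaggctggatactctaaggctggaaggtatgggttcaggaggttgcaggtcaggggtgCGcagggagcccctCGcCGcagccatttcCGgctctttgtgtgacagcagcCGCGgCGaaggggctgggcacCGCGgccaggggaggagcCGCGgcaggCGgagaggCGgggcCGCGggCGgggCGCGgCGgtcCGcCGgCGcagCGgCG
Art4, chr6:136857551-136857850, minus strand: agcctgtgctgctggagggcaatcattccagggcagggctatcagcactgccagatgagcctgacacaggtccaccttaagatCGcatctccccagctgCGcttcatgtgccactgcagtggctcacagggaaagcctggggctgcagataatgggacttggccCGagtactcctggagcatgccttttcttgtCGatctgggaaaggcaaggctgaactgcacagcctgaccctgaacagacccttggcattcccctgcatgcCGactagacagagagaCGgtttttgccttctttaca
The CG dinucleotide was the only motif searched, and it reads the same on both strands. The windows of Slc22a5, Cyfip2, Cntfr and Nid1 held 34, 29, 26 and 20 of them, counts that 7.73, 12.9, 16.9 and 26.5% of all 32851 windows in the table reach. Those of Zfp994, Art4 and H2-T23 held 11, 6 and 5, reached by 41.4, 56.4 and 62% of windows. Peaks that differed from B6 thus included CG-rich promoters and promoters near the median of 7.

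Against B6, few peaks differed. The mark was higher in BXD75 at 44 peaks and lower at 56, which is 100 of 23809 peaks or 0.42% (edgeR quasi-likelihood test, adjusted p under 0.05), while 1051 peaks, or 4.41%, had an unadjusted p under 0.05. Promoter peaks made up 52 of the calls, 30 of them higher and 22 lower, and the share called was 0.414% at promoters. All 3 BXD75 libraries lay beyond all 3 B6 libraries at 8.34% of all peaks. The calls did not fall evenly over the peaks: 15 of the 97 peaks found on the second genome alone were called, all higher in BXD75, against 67 of the 14804 found on the reference genome alone, of which 50 were lower. Without 1 library the count ran between 66 (without B6 replicate 3) and 106 (without BXD75 replicate 1, with 46 higher and 60 lower). With every library thinned to the depth of the shallowest D2 library there were 27 higher and 8 lower, so the balance of the directions turned.

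The promoter peaks with the largest increase over B6 had almost no reads in B6. Entpd4b, a gene of the ectonucleoside triphosphate diphosphohydrolase family, has a closely related copy (Entpd4) that makes its reads uncertain. Its peak had 34.4, 25.7 and 27.7 CPM in BXD75, no read in the 3 B6 libraries, and 25.8, 29.1 and 31.0 CPM in D2. It was at least 229-fold higher in BXD75 than in B6, taken against a floor of 3 reads over the B6 libraries. Nid1 (chr13:13436792-13441722), which encodes the basement membrane protein nidogen-1, had 121, 101 and 84.2 CPM in BXD75, 0.355, 0.438 and 0.605 CPM in B6, and 104, 111 and 130 CPM in D2. Its difference from B6 was 7.72 ± 0.23 (log2 ± SE, adjusted p = 4.02e-10) and its difference from D2 was -0.17 ± 0.13 (adjusted p = 0.414). BXD75 libraries overlapped those of D2 at both peaks and lay far above those of B6.

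Both peaks were found on the second genome alone, and at both BXD87 had the same kind of level: 27.3 ± 3.71 CPM at Entpd4b and 91.2 ± 7.36 CPM at Nid1 (SD, n = 3). Of the 4 peaks with no read in any B6 library, all 4 had at least 30 reads in BXD75, in D2 and in BXD87, and all 4 had been found on the second genome alone. Of the 8 peaks with no read in any D2 library, all found on the reference genome alone, 6 had at least 30 reads in BXD75 and 7 in BXD87. The promoter peak of Gm8113, picked after its values were seen, was the only one with no read in any BXD75 library. It had 10.2, 8.61 and 9.68 CPM in B6 and no read in D2 or BXD87, so it was at least 69.5-fold lower in BXD75 than in B6 (floor of 3 reads over the BXD75 libraries), and its interval was 1.16 kb on the reference genome and 0.215 kb on the second. How reads were assigned to either genome is not given in the sources, and its part in these peaks was not tested.

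Cntfr, the receptor subunit for ciliary neurotrophic factor, gave the largest such difference at a promoter peak found on both genomes with equal width. The peak (chr4:41693978-41698172) had 91.5, 48.6 and 68.1 CPM in BXD75, 4.14, 7.00 and 5.81 CPM in B6, and 48.6, 57.3 and 58.6 CPM in D2. Its log2 difference from B6 was 3.63 ± 0.24 (adjusted p = 1.81e-06) and from D2 0.34 ± 0.20 (adjusted p = 0.301), so that the BXD75 libraries spanned the D2 range. The pattern was also present in other cells of the line, where the mark averaged 31.8 ± 5.88 CPM in BXD75 stem cells (SD, n = 5), 1.03 ± 0.228 CPM in B6 and 16.7 ± 4.07 CPM in D2 stem cells (SD, n = 3 each). BXD87 cardiomyocytes had 54.5 ± 7.38 CPM (SD, n = 3).

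Syt11, a synaptotagmin of vesicle traffic, had 49.0, 52.4 and 43.6 CPM in BXD75, 0.947, 1.02 and 1.09 CPM in B6, and 30.3, 24.1 and 30.6 CPM in D2. It was above both founders in all libraries, by 5.55 ± 0.19 over B6 and 0.77 ± 0.14 over D2 (log2 ± SE, adjusted p = 9.57e-10 and 0.00487). Trim5, a member of a tripartite motif family with close copies, whose reads are therefore uncertain, had 43.4, 40.2 and 32.9 CPM in BXD75, 6.98, 4.23 and 4.36 CPM in B6, and 19.7, 16.9 and 16.6 CPM in D2. Its differences were 2.89 ± 0.21 from B6 and 1.12 ± 0.20 from D2 (adjusted p = 3.52e-06 and 0.00456).

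Hist2h3c2, a histone H3 gene with near-identical copies and so likewise uncertain, had 42.4, 37.8 and 33.5 CPM in BXD75, 8.64, 6.86 and 8.35 CPM in B6, and 37.8, 39.4 and 39.7 CPM in D2. In hepatocytes the same peak averaged 31.1 ± 0.885 CPM in BXD75, 10.1 ± 1.76 CPM in B6 and 36.0 ± 2.49 CPM in D2 (SD, n = 3 each). The X-linked retrotransposon-derived Rtl8a (14.5 ± 4.04 CPM in BXD75, 0.0798 ± 0.0691 CPM in B6, 14.1 ± 0.871 CPM in D2; SD, n = 3 each) and Nudt10 completed the 8 promoter peaks with the largest increase. The 8 were chosen among calls without overlap between BXD75 and B6 libraries, so that lack of overlap was set by the rule. Each call held without any 1 of the 9 libraries.

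Cyfip2, Art4 and Prune2, promoter peaks lower than in B6, kept the mark in BXD75 at levels near or below those of D2. Cyfip2 (chr11:46304642-46313398), a subunit of the actin-regulating WAVE complex, had 48.5, 37.2 and 42.1 CPM in BXD75, 98.1, 97.7 and 96.3 CPM in B6, and 48.4, 53.9 and 47.2 CPM in D2. The log2 difference was -1.19 ± 0.10 from B6 (adjusted p = 1.55e-05) and -0.23 ± 0.11 from D2 (adjusted p = 0.193), although its interval was 1.5 times wider on the reference than on the second genome. Art4, a member of the ADP-ribosyltransferase family that carries the Dombrock blood group in humans, had 36.0, 35.4 and 33.3 CPM in BXD75, 88.6, 59.5 and 87.4 CPM in B6, and 39.7, 44.6 and 38.9 CPM in D2. Prune2 had 31.3, 34.9 and 32.2 CPM in BXD75, 76.2, 59.1 and 79.97 CPM in B6, and 45.3, 42.2 and 37.0 CPM in D2. At all 3 peaks the lack of overlap with B6 was set by the rule that named them. BXD87 averaged 37.9 ± 0.354, 32.0 ± 0.504 and 21.2 ± 1.17 CPM there (SD, n = 3).

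Trpm3, a calcium-permeable cation channel, was below both founders, with 3.44, 0.852 and 1.82 CPM in BXD75, 12.5, 13.9 and 14.4 CPM in B6, and 9.39, 9.78 and 3.40 CPM in D2. BXD75 replicate 1 slightly exceeded the lowest D2 library there. Its call against B6 (-2.72 ± 0.38, adjusted p = 0.00243) held without any 1 library, while the call against D2 (-1.93 ± 0.42, adjusted p = 0.0171) was lost without BXD75 replicate 2 or 3 or D2 replicate 1 or 2. The protocadherins Pcdhgb2 and Pcdhga12, which belong to a cluster of near-identical first exons and are uncertain for that reason, and Rassf8 were lower by log2 differences of -1.08, -1.06 and -1.002. Each of these calls was lost without 1 library, as was that of Klhdc9 (-1.22 ± 0.23, adjusted p = 0.0332) without any of 7 libraries. Of all 33 calls against B6 at the peaks named by rule, 27 held without any 1 library and 6 did not.

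**Figure D1:**
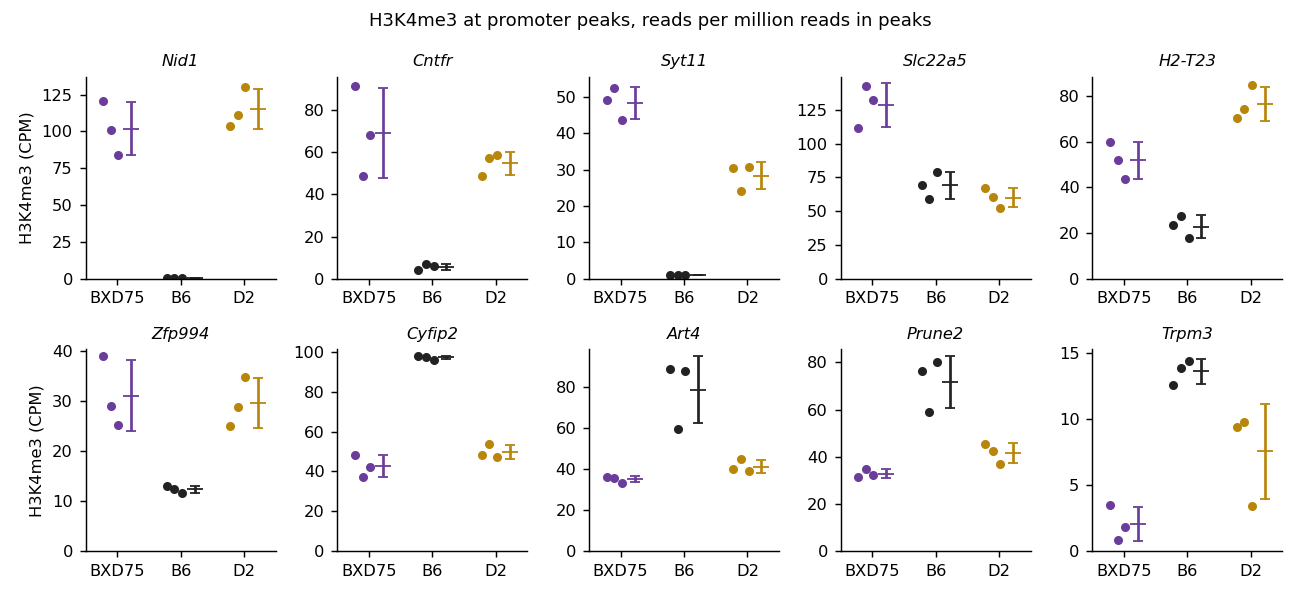
H3K4me3 in CPM (vertical axis, from 0) at 10 promoter peaks in BXD75, B6 and D2 cardiomyocytes; points are libraries and the bar beside them the mean with its SD (n = 3). The 4 peaks Nid1, Cntfr, Syt11 and Zfp994 are high in BXD75 and D2 and low in B6, and Slc22a5 is higher in BXD75 than in both founders. At H2-T23 BXD75 lies between the founders, and at Cyfip2, Art4, Prune2 and Trpm3 it lies below B6.

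Against D2, many more peaks differed, and a property of the deposited intervals moved with them. The mark was higher in BXD75 at 796 peaks (3.34%) and lower at 477, which is 1273 of 23809 or 5.35% (edgeR quasi-likelihood test, adjusted p under 0.05), and 25.4% of peaks had an unadjusted p under 0.05. Between the founders 1551 peaks were called, or 6.51%, of which 967 were higher in B6 than in D2. All 3 BXD75 libraries lay beyond all 3 D2 libraries at 26.6% of peaks. The association list gives each peak an interval on the reference genome and one on the second genome, and for 1475 peaks, or 6.20%, the reference interval was wider by more than 5%. At those peaks 520 were called against D2, or 35.3%, and 516 of these were higher in BXD75.

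Across the 8908 peaks found on both genomes, the difference from D2 followed the ratio of the 2 widths. Where the log2 ratio was between 0.5 and 1 the median log2 difference was 0.48 for BXD75 minus D2, 0.03 for BXD75 minus B6 and 0.45 for B6 minus D2, over 378 peaks. At a log2 ratio of 1 to 2 these medians were 1.01, 0.00 and 0.98 over 179 peaks, and 91.1% of them were called against D2. At 2 or more they were 1.92, 0.02 and 1.89, and all 29 peaks were called against D2 while 0 were called against B6 (edgeR). Pearson's r of the log2 width ratio was 0.566 with BXD75 minus D2 and -0.100 with BXD75 minus B6, and Spearman's rank correlation was 0.268 and -0.046. These are correlations across peaks, which share their libraries and are not independent replicates. The 22196 peaks whose 2 widths differ by at most 5% are called peaks of equal width below, and results against D2 are given for them.

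**Figure D2:**
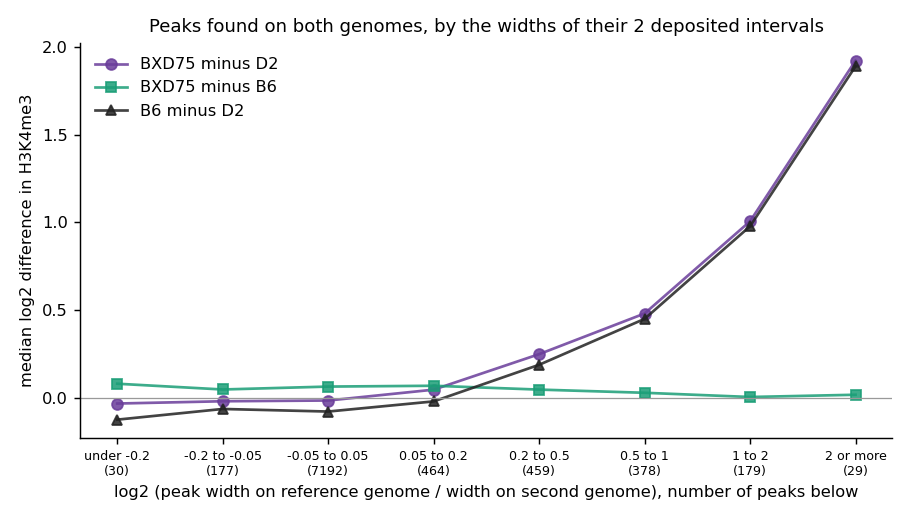
Median log2 difference in H3K4me3 (vertical axis) by the log2 ratio of the reference to the second-genome width of the peak (horizontal axis, bins with their number of peaks), for peaks found on both genomes. The lines for BXD75 minus D2 and B6 minus D2 climb together to 1.92 and 1.89 in the widest bin, while that for BXD75 minus B6 lies between 0.00 and 0.08.

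4 promoter peaks with large ratios among those named against D2 show this directly. Elk3, an ETS-domain transcription factor, had 274, 315 and 277 CPM in BXD75, 278, 293 and 298 CPM in B6, and 44.1, 48.2 and 56.7 CPM in D2. Its interval was 39.0 kb on the reference genome and 3.76 kb on the second. Usp13, Ank and St3gal4, whose intervals were 7.44 to 15.2 times wider on the reference genome, likewise had D2 libraries far below the others. Their BXD75 libraries overlapped those of B6, and none of the 4 was called against B6.

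At peaks of equal width 745 of 22196, or 3.36%, were called against D2, 278 higher (1.25%) and 467 lower (2.1%) in BXD75. Against B6 the same peaks gave 86 calls, or 0.387%. The call against D2 thus kept about the same number of decreases and lost most of the increases when intervals of unequal width were left aside. The direction moved with peak level. In the lowest of the 5 level classes 19 equal-width peaks were higher and 120 lower, and in the highest 130 and 65. The split into 278 higher and 467 lower rested on single libraries and on depth. Without BXD75 replicate 1 the equal-width calls were 2046 higher and 3265 lower, without D2 replicate 1 they were 114 and 96, and without D2 replicate 2 they were 40 and 36. With thinned libraries they were 55 and 50, so that the excess of decreases was lost. In the fit without the BXD87 libraries they were 102 and 136. Among equal-width promoter peaks higher than in D2, Zfp995, a zinc finger gene with close copies and therefore uncertain, had 19, 9.66 and 10.8 CPM in BXD75, 7.22, 8.46 and 6.17 CPM in B6 and no read in D2. It was at least 47.2-fold higher in BXD75 than in D2, against a floor of 3 reads over the D2 libraries. The Mfsd8 peak, shared with Abhd18, also had no read in D2 and was at least 19.5-fold higher, with 4.82, 6.25 and 5.20 CPM in BXD75 and 6.86, 3.06 and 7.38 CPM in B6.

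Fggy, a carbohydrate kinase, had 29.8, 36.5 and 27.7 CPM in BXD75, 25.6, 22.6 and 30.6 CPM in B6, and 12.7, 8.11 and 8.32 CPM in D2. Its difference from D2 was 1.67 ± 0.22 (log2 ± SE, adjusted p = 0.000328), and in hepatocytes the mark averaged 35.8 ± 3.12 CPM in BXD75, 49.3 ± 1.38 CPM in B6 and 3.05 ± 0.912 CPM in D2 (SD, n = 3 each). BXD87 had 3.49 ± 0.279 CPM in cardiomyocytes, so the lines took opposite levels at this promoter. Cyp4f16, a cytochrome P450 of the fatty acid omega-hydroxylase family, had 28.1, 18.2 and 26.5 CPM in BXD75, 26.3, 23.9 and 24.0 CPM in B6, and 9.16, 8.83 and 10.2 CPM in D2. Abra, an actin-binding protein of striated muscle, had 79.4, 109 and 94.5 CPM in BXD75, 110, 77.3 and 102 CPM in B6, and 46.5, 45.6 and 46.1 CPM in D2. At these 3 promoters BXD75 overlapped B6 and did not overlap D2. They and the next gene were picked as equal-width peaks after their values were seen.

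Slc22a5, the carnitine transporter that supplies fatty acid oxidation in heart muscle, was above both founders. Its peak (chr11:53887224-53893291) had 111, 143 and 132 CPM in BXD75, 69.2, 59.4 and 79.2 CPM in B6, and 66.9, 60.6 and 52.5 CPM in D2. The log2 differences were 0.89 ± 0.12 from B6 and 1.09 ± 0.13 from D2 (adjusted p = 0.00234 and 0.000151), and both calls held without any 1 library. B6 and D2 overlapped. In stem cells the peak averaged 41.9 ± 3.78 CPM in BXD75 (SD, n = 5), 22.7 ± 0.468 CPM in B6 and 26.4 ± 5.15 CPM in D2 (SD, n = 3 each; adjusted p = 5.44e-06 and 0.000125 against B6 and D2, edgeR). In hepatocytes it averaged 105 ± 12.2 CPM in BXD75, 101 ± 20.3 CPM in B6 and 67.0 ± 3.38 CPM in D2 (SD, n = 3 each), and was not called against B6 there (adjusted p = 0.718, edgeR).

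Promoter peaks lower than in D2 had low levels and a wide spread within BXD75 and B6. Glp1r, the receptor for the incretin GLP-1, had 9.64, 3.84 and 4.68 CPM in BXD75, 3.67, 7.59 and 3.27 CPM in B6, and 25.4, 36.0 and 24.6 CPM in D2, a difference from D2 of -2.25 ± 0.36 (adjusted p = 0.00215). Etnk2, an ethanolamine kinase, had 35.3, 17.9 and 23.5 CPM in BXD75, 20.2, 29.5 and 18.3 CPM in B6, and 63.4, 88.5 and 87.3 CPM in D2. At Asic4, Rhov, Zfp853, Npw, Galr2 and Grin3b the differences from D2 lay between -1.64 and -1.45. BXD75 replicate 1 was the highest BXD75 library at 7 of these 8 peaks and B6 replicate 2 the highest B6 library at all 8. The part that the differing libraries play in these differences was not tested. The calls of Glp1r, Etnk2 and Npw held without any 1 library, while the other 5 were lost without 2 to 6 of the libraries.

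Calls against D2 depended on single libraries far more than those against B6. Without BXD75 replicate 1, 6091 peaks were called against D2, among them all 1273, whereas without D2 replicate 2 only 382 were. Without BXD75 replicate 2 or 3 there were 515 and 705 calls, without B6 replicate 2 there were 1968, and without D2 replicate 1 or 3 there were 568 and 618. With every library thinned to 2618483 reads, the depth of the shallowest D2 library, 419 peaks were called against D2 and 35 against B6. At equal width the thinned counts were 105 and 29.

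At the 1551 peaks that differed between the founders, BXD75 was nearer to B6 than to D2 at 1387, or 89.4%. The position of BXD75 was measured as its log2 distance from the founder midpoint divided by the distance from that midpoint to a founder, so that 1 is the B6 level and -1 the D2 level. The median position was 0.777 over all founder-differential peaks and 0.646 over the 1049 of equal width (4.73% of such peaks), of which 903, or 86.1%, were nearer to B6. The test of BXD75 against the founder midpoint called 267 peaks (1.12%), or 0.41% at equal width, and among founder-differential peaks of equal width it called 7 nearer B6 and 34 nearer D2. Over all widths the same test called 172 and 41. The founder-differential set itself moved with single libraries, between 502 peaks without D2 replicate 2 and 3841 without BXD75 replicate 1, with 85.7 and 91.8% of them nearer to B6. At equal width these sets held 182 and 3168 peaks, of which 67.0 and 91.2% were nearer to B6, and with thinned libraries 75.2% were. With 1 library left out, the median position ran between 0.468 (without B6 replicate 2, 3679 peaks) and 1.14 (without BXD75 replicate 1). At equal width it ran between 0.348 without B6 replicate 1 and 1.16 without BXD75 replicate 1.

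The nearness to B6 was not equal among libraries. At equal-width founder-differential peaks the median position was 0.132, 1.04 and 0.680 in BXD75 replicates 1, 2 and 3. In the 3 BXD87 libraries it was 1.33 to 1.58, so that this other line stood beyond the B6 level. With all libraries thinned to 1 depth, 484 of 548 founder-differential peaks of any width were nearer to B6 and the median position was 0.737. The part of the allele, of the D2 libraries and of the spread between BXD75 libraries in this position was not tested.

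The size of the founder difference separated the peaks. Among equal-width peaks with a founder difference under 2-fold, 683 of 781 were nearer to B6 (87.5%), and between 2 and 4-fold 211 of 244 were (86.5%). From 4 to 8-fold, 5 of 7 were nearer to B6. At 8-fold or more the balance turned, with 4 peaks nearer to B6 and 13 nearer to D2. Over all widths 22 peaks differed 8-fold or more between the founders, and BXD75 was nearer to D2 at 16 of these and BXD87 at 14. Of the 22, 12 had been found on the second genome alone, and both lines were nearer to D2 at all 12. Another 9 had been found on the reference genome alone, where BXD75 was nearer to B6 at 6 and to D2 at 3.

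**Figure D3:**
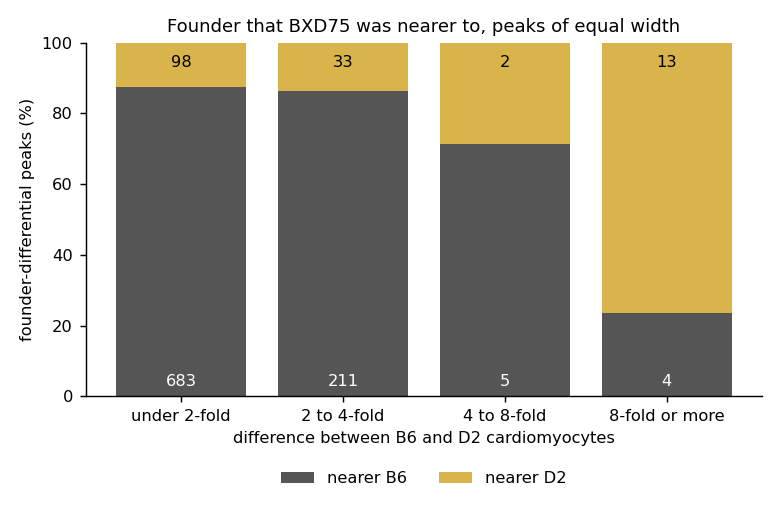
Share of founder-differential peaks of equal width (vertical axis, percent) at which BXD75 was nearer to B6 or to D2, by the size of the founder difference (horizontal axis); numbers in the bars are peaks. The share nearer to B6 is 87.5% under 2-fold, and 13 of 17 peaks at 8-fold or more are nearer to D2.

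By position along the chromosomes, cardiomyocytes alone placed BXD75 near B6 almost everywhere. Of 218 windows of 5 Mb with at least 3 founder-differential peaks, 188 had 75% or more of them nearer to B6, 2 had 75% or more nearer to D2 and 28 were mixed. With equal-width peaks the numbers were 122 and 2 of 157. The longest run of B6 windows was on chromosome 17 between 20 and 50 Mb, where 42 of 45 peaks were nearer to B6, and 43 marker peaks on chromosome 4 between 130 and 155 Mb had 42 nearer to B6. The windows nearer to D2 were on chromosome 9 at 45 to 50 Mb and on chromosome 11 at 45 to 50 Mb, each with 1 of 5 peaks nearer to B6. The first holds the peak nearest to Nxpe2 and the second that of Cyfip2.

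The other cell types of the same line gave a different split. Windows were 94 nearer B6 and 56 nearer D2 of 410 in hepatocytes, 94 and 33 of 526 in stem cells, and 93 and 16 of 518 in germ cells. BXD75 germ cells were 1 library, of 3454466 reads in peaks, so their placing has no replicate. BXD75 was nearer to B6 at 53.5, 55.2 and 59.4% of the founder-differential peaks of these cells, against 89.4% in cardiomyocytes. The pooled equal-width markers of the 3 cell types with a founder difference of 4-fold or more, which use no cardiomyocyte library, placed 114 windows near B6, 90 near D2 and 259 as mixed. Their longest D2 runs were on chromosome 6 at 95 to 120 Mb and 135 to 150 Mb and on chromosome 10 at 5 to 20 Mb, and their longest B6 runs on chromosome 12 at 15 to 40 Mb and chromosome 13 at 55 to 80 Mb.

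Against these windows the 2 comparisons of the cardiomyocytes behaved differently. The windows share no library with the cardiomyocytes, but a peak present in several cell types can help to class its own window. Such peaks were not left out. At equal width, 23 of 3931 peaks in D2 windows were called against B6 (0.585%), 56 of 11378 in mixed windows (0.492%) and 6 of 5221 in B6 windows (0.115%). Unadjusted p-values under 0.05 against B6 made up 5.70% of peaks in D2 windows and 2.89% in B6 windows. Against D2 the shares called were 3.13% in D2 windows, 3.38% in mixed windows and 3.45% in B6 windows. Thus calls against B6 were more frequent by count where the other cells placed the line near D2. In the main fit, calls against D2 were about as frequent in all 3 classes.

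The share against B6 was also higher in D2 windows than in B6 windows with DESeq2, the other scaling and filters, without BXD87, with thinned libraries, the replicate block, peaks of both genomes and each library left out in turn. Windows of other widths were not run for it. With thinned libraries 10 and 1 equal-width peaks were called against B6 in D2 and B6 windows, and without BXD75 replicate 1 there were 24 and 7. Against D2 the equal-width shares in D2 and B6 windows were 0.382 and 0.671% with thinned libraries (15 and 35 peaks). Without D2 replicate 2 they were 0.382 and 0.517%, and without D2 replicate 1 they were 1.22 and 1.09%. Founder-differential peaks were nearer to B6 at 80.9% in D2 windows and at 94.0% in B6 windows. At a founder difference of 8-fold or more, over all widths, 8 of 9 peaks in D2 windows were nearer to D2, as were 7 of 7 in mixed windows, and 5 of 5 in B6 windows were nearer to B6. Any of these peaks that also served as markers in the other cells were kept in the counts.

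**Figure D4:**
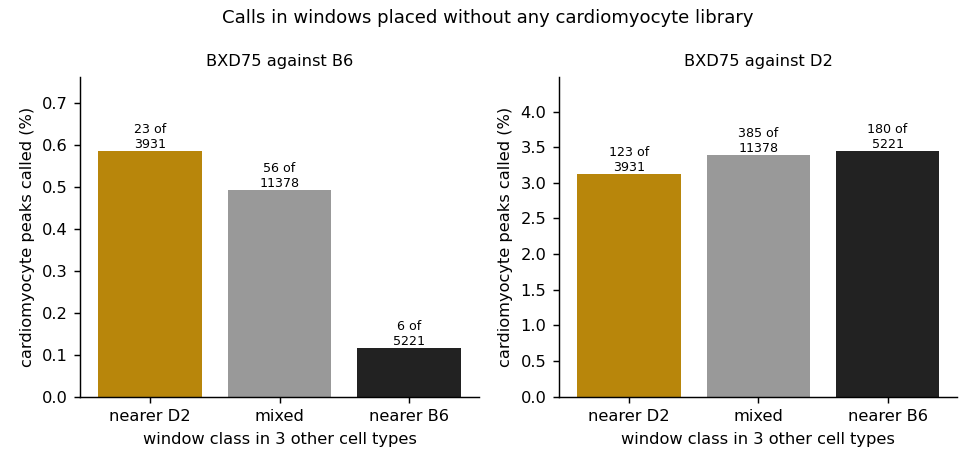
Share of equal-width cardiomyocyte peaks called (vertical axes, percent, each from 0) for BXD75 against B6 (left) and against D2 (right), in windows classed by hepatocytes, stem cells and germ cells of BXD75; labels give called peaks of all peaks. Calls against B6 make up 0.585% of peaks in windows nearer D2 and 0.115% in windows nearer B6, and calls against D2 3.13 to 3.45%.

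Of the named peaks called against B6, 12 lay in D2 windows of the other cells, 17 in mixed windows, 3 in B6 windows and 1 in a window with no class. In the same order, these classes held 4183, 12241, 5603 and 1782 of all cardiomyocyte peaks, with 26, 66, 7 and 1 called against B6. Nid1 and the intergenic peak nearest to Ero1lb share a D2 window on chromosome 13 at 10 to 15 Mb, where 1 of 8 markers of the other cells was nearer to B6. The second of these peaks had 85.1, 57.8 and 54.2 CPM in BXD75, 1.18, 1.02 and 0.605 CPM in B6, and 73.7, 91.9 and 100.2 CPM in D2. Art4 and Rassf8 lie in the D2 run of chromosome 6 at 135 to 150 Mb, where 23 of 103 markers were nearer to B6. In cardiomyocytes both were lower in BXD75 than in B6 (Rassf8 by -1.002 ± 0.16, adjusted p = 0.00743) and not called against D2. Zfp994, described below, went against its window: BXD75 lay above B6 and overlapped D2 there, in a window on chromosome 17 at 20 to 25 Mb where 12 of 16 markers were nearer to B6. Against the windows of the cardiomyocytes themselves, with at least 5 markers, 12 of the 213 founder-differential peaks with a called midpoint stood on the other side, 11 of them nearer to D2. Entpd4b, Syt11, Trim5 and Hist2h3c2 were among these.

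A score per library joined the marker peaks of hepatocytes that lie in cardiomyocyte peaks. At 56 markers where BXD75 hepatocytes were nearer to D2, the mean log2 level signed towards B6 was -0.249, -0.048 and -0.140 in the BXD75 libraries, 0.407, 0.293 and 0.478 in B6, and -0.170, -0.270 and -0.301 in D2. All BXD75 libraries lay below all B6 libraries, with a difference of -0.54 (exact permutation test, two-sided, p = 0.1, the smallest that 3 against 3 libraries allow). The difference from D2 was 0.10 (exact permutation p = 0.2), with overlapping libraries. At 91 markers where hepatocytes were nearer to B6 the founders' cardiomyocytes did not separate, with means of -0.009 ± 0.101 in BXD75, 0.008 ± 0.067 in B6 and 0.001 ± 0.028 in D2 (SD, n = 3 each), so nothing could be read from them. BXD75 replicate 1, the library apart in other measures, was the lowest of its group on the first score and the highest on the second.

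**Figure D5:**
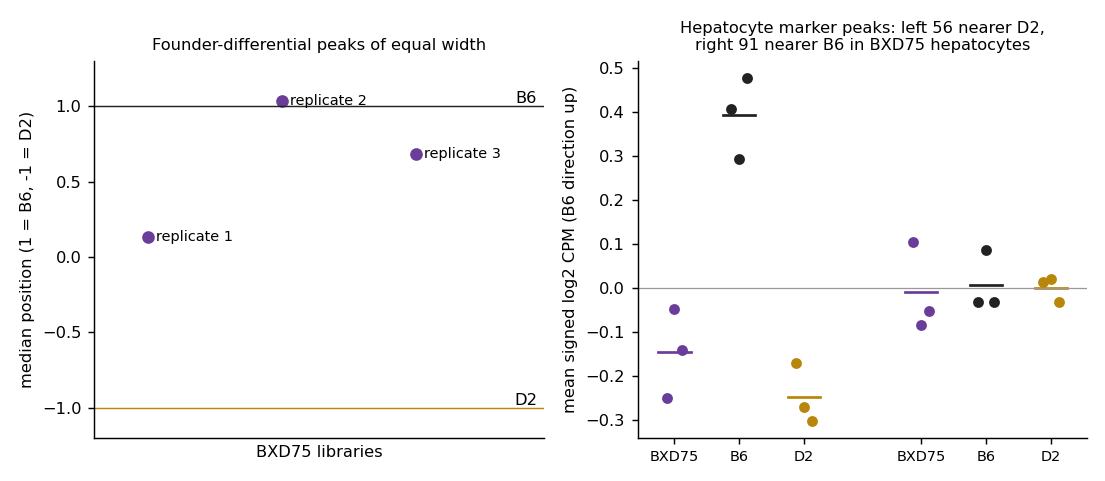
Left, median position of each BXD75 library at founder-differential peaks of equal width (vertical axis, 1 is the B6 level and -1 the D2 level); replicates 1, 2 and 3 lie at 0.132, 1.04 and 0.680. Right, mean signed log2 CPM (vertical axis) at hepatocyte marker peaks, points for libraries and lines for the mean of 3; at the 56 markers on the left the BXD75 libraries lie between -0.249 and -0.048, below all B6 libraries.

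Outside the founder range, BXD75 differed from the midpoint with all 3 libraries beyond all 6 founder libraries at 76 peaks, or 0.319%, 27 above and 49 below. All 3 BXD75 libraries lay beyond the 6 founder libraries, without that test, at 2.84% of peaks. The count at equal width was 62, with 15 above and 47 below. Without BXD75 replicate 1 it was 483 over all widths (186 above and 297 below), without BXD75 replicate 2 it was 42 (22 and 20), and without BXD75 replicate 3 it was 66 (39 and 27). With thinned libraries it was 17, with 14 above and 3 below, so the balance of the directions turned. Slc28a2, a sodium-coupled nucleoside transporter, had 25.3, 26.7 and 18.9 CPM in BXD75, 7.10, 3.21 and 4.84 CPM in B6, and 18.1, 17.4 and 11.3 CPM in D2. Lipo3, a lipase with close copies in a cluster and so uncertain, had 29.2, 19.2 and 20.9 CPM in BXD75, 5.92, 6.71 and 5.44 CPM in B6, and 13.6, 11.9 and 17 CPM in D2. Syt11, Trim5 and Zfp995, described above, were the others of the 5 largest above the range.

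Below the range the largest differences were at peaks away from promoters. The peak nearest to Ostc had 3.58, 2.27 and 3.64 CPM in BXD75, 24.0, 20.9 and 26.1 CPM in B6, and 5.87, 7.64 and 5.29 CPM in D2, a difference from B6 of -2.89 ± 0.22 (adjusted p = 4.84e-06). BXD87 was at 21.4 ± 1.72 CPM there (SD, n = 3), so the lines took different levels. The peak in an exon of Nxpe2 had 1.79, 1.56 and 1.56 CPM in BXD75, 9.70, 10.5 and 11.7 CPM in B6, and 4.23, 6.92 and 4.54 CPM in D2. An intergenic peak nearest to Gm43821 had 2.07, 1.14 and 0.910 CPM in BXD75, 7.57, 5.98 and 5.81 CPM in B6, and 5.87, 5.73 and 4.91 CPM in D2, the founders overlapping. Its difference was -2.23 ± 0.29 from B6 and -2.01 ± 0.32 from D2 (adjusted p = 0.00139 and 0.00218). The peaks nearest to Gm43623, whose intervals differ 3.18-fold in width, and Gm27974 were the others.

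Genes of heart muscle were not called against B6. Of the 14 sarcomere, 18 calcium and excitation, 19 cardiac transcription factor, 18 fatty acid oxidation and 19 respiratory chain genes with a counted promoter peak, 0 were called against B6 (edgeR), 3 had an unadjusted p under 0.05, and the medians of the 5 lists lay between -0.08 and 0.06 on the log2 scale. The median over all 12006 promoter peaks with 1 peak per gene was 0.06, and 0.414% of all promoter peaks were called. The share of heart genes called was thus near the background of that comparison.

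Against D2, promoters of heart genes were higher in BXD75 by count. At equal width, 4 of 12 sarcomere, 0 of 16 calcium and excitation, 3 of 14 transcription factor, 5 of 14 fatty acid oxidation and 4 of 18 respiratory chain genes were called higher and 0 lower, while 3.8% of all promoter peaks of equal width were called. Their median log2 differences were 0.37, 0.22, 0.27, 0.37 and 0.23, against -0.01 over the 10567 equal-width promoter peaks with 1 peak per gene, of which 204 were higher and 188 lower. Without BXD75 replicate 1 the counts higher were 6, 6, 8, 12 and 8, with 1 calcium and excitation gene lower, beside 9.16% of the equal-width promoter peaks higher and 19.9% lower. Without D2 replicate 2 the fatty acid oxidation list kept 1 call and the other 4 lists 0 (edgeR), and with thinned libraries the counts were 1, 0, 1, 1 and 0. In the fit without the BXD87 libraries they were 3, 0, 0, 2 and 0. Ttn, the giant spring protein of the sarcomere, had 36.1, 52.3 and 42.9 CPM in BXD75, 46.1, 35.0 and 57.5 CPM in B6, and 23.9, 18.9 and 23.4 CPM in D2 (difference from D2 0.99 ± 0.19, adjusted p = 0.00994). Pdk4, the kinase that turns pyruvate dehydrogenase off when fat is burnt, had 95.3, 120 and 118 CPM in BXD75, 111, 87.5 and 103 CPM in B6, and 76.5, 68.7 and 66.1 CPM in D2 (0.65 ± 0.12, adjusted p = 0.00475). At both promoters BXD75 overlapped B6 and not D2.

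The other equal-width heart genes called were Tnni3, Ldb3 and Csrp3 of the sarcomere, Myocd, Ppargc1a and Zfpm2 among the transcription factors, Fabp3, Acadm, Etfb and Etfdh of fatty acid oxidation, and Uqcrc2, Uqcrfs1, Cox6c and the peak at the start of Eef1b2 and Ndufs1 of the respiratory chain. Their differences from D2 were 0.31 to 0.82, each was lost without at least 2 of the 9 libraries, and D2 was the lowest strain at all of them. The call of Ttn was lost without D2 replicate 2 and that of Pdk4 was kept without any 1 library. Over all widths the counts were 5 of 14, 2 of 18, 8 of 19, 8 of 18 and 5 of 19, and 5.57% of all promoter peaks were called higher. Gja1, the gap junction protein connexin 43 (1.43 ± 0.12), and Cpt1b, the gate of mitochondrial fat import (1.73 ± 0.10), had the largest differences. Gata6, a GATA transcription factor of the heart (0.91 ± 0.11), had the largest among the cardiac transcription factors. The intervals of Gja1, Cpt1b and Gata6 were 2.19, 3.82 and 2.79 times wider on the reference genome. Fewer cells of a type and less mark per cell cannot be told apart in bulk chromatin.

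In the lists of other cells the median log2 differences from D2 lay between -0.46 and -0.01, beside 0.02 over all promoter peaks with 1 peak per gene. None of 5 fibroblast, 8 endothelial, 2 macrophage and blood or 2 adipocyte and epicardium genes was called against D2 (edgeR, 1 with an unadjusted p under 0.05). Of all promoter peaks 7.36% were called, and for so few genes the absence of a call is near that share. Of 7 smooth muscle and pericyte genes, 6 had an unadjusted p under 0.05 and 1, Notch3, was called lower, beside 1.79% of all promoter peaks called lower. It had 48.4, 29.6 and 34.5 CPM in BXD75, 32.9, 49.0 and 28.6 CPM in B6, and 54.5, 71.3 and 72.6 CPM in D2, a call lost without any of 6 libraries. Without BXD75 replicate 1, 5 of the 6 equal-width members were called lower, beside 19.9% of the equal-width promoter peaks with 1 peak per gene. With thinned libraries, without the BXD87 libraries, or without D2 replicate 2, 0 of the 6 were called (edgeR). The median of these 6 was -0.53, and the list summed to 234 to 328 CPM in BXD75, 265 to 337 CPM in B6 and 357 to 405 CPM in D2 libraries. Sarcomere sums ran the other way, as given above, and the part of the cell mixture in the heart gene differences was not tested.

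Among the remaining lists, H2-T23, a non-classical class I histocompatibility gene, was the only one of 9 histocompatibility genes called against B6. It had 59.9, 52.0 and 43.6 CPM in BXD75, 23.4, 27.4 and 17.7 CPM in B6, and 70.4, 74.5 and 85 CPM in D2, with differences of 1.19 ± 0.15 from B6 and -0.56 ± 0.15 from D2 (adjusted p = 0.00137 and 0.0449). BXD75 thus lay between the founders and overlapped neither, and the call against D2 was lost without any of 6 libraries. Class I genes have close copies, its reads are uncertain for that reason, and its interval was 1.21 times wider on the reference genome.

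Zinc finger genes, many of which encode KRAB repressors in clusters of near copies, had 285 counted promoter peaks, of which 2 were called higher than in B6 and 0 lower, against 0.239% higher over all promoter peaks. Zfp994 had 38.9, 29.0 and 25.2 CPM in BXD75, 13.0, 12.4 and 11.6 CPM in B6, and 24.9, 28.6 and 34.8 CPM in D2, a difference from B6 of 1.33 ± 0.20 (adjusted p = 0.00579) that was lost without B6 replicate 3. Zfp729a was above both founders, with 56.5, 47.0 and 46.4 CPM in BXD75, 26.9, 25.7 and 28.6 CPM in B6, and 20.7, 18.6 and 20.0 CPM in D2, and its interval was 1.17 times wider on the reference genome. The reads of both are uncertain because of their copies. At equal width 8 of 246 zinc finger peaks were higher than in D2 (3.25%) and 1 lower (0.407%), beside 1.93 and 1.78% of all equal-width promoter peaks with 1 peak per gene. Without BXD75 replicate 1 there were 24 and 18, beside 9.16 and 19.9%, and without D2 replicate 2 there were 2 and 0.

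Of 20 writers and erasers of H3K4 methylation, 20 housekeeping and 20 stress genes with counted promoter peaks, 0 were called in either comparison (edgeR), with 1, 0 and 0 unadjusted p-values under 0.05 against B6 and 4, 7 and 4 against D2. In the interferon response list Oas2, a sensor of double-stranded RNA, was called lower than in D2 among 17 genes (-0.57 ± 0.15, adjusted p = 0.0438). Cbx5, which encodes the heterochromatin protein HP1 alpha, was called higher than in D2 among 14 KRAB silencing cofactors (0.50 ± 0.12, adjusted p = 0.0289), and Arntl, the clock activator BMAL1, among 19 clock genes (0.51 ± 0.12, adjusted p = 0.0253, with an interval 1.54 times wider on the reference genome). Each of these lists thus had 1 call against D2, while 7.36% of all promoter peaks were called. None of the 3 lists had a call against B6 (edgeR), where the interferon list had 1 unadjusted p under 0.05 and the others 0.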

How the data were processed

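H3K4me3 ChIP-seq of cardiomyocytes from BXD75, B6, D2 and BXD87 mice was analysed. The authors deposited whole-number read counts per peak and library, not normalised, and for each peak the coordinates of 2 intervals, on mm10 and on another assembly that the sources do not name. The submitters' processing notes list CASAVA 1.8, MACS 1.4.2, BWA 0.5.10 and the build mm10; how reads were counted on each assembly is not given in the sources used. Peaks were placed against GENCODE M21, and 1 kb from a start site defined a promoter.

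Counts of all 12 cardiomyocyte libraries entered 1 edgeR 4.0.16 model (R 4.3.3; filter by group with filterByExpr, TMM factors, robust glmQLFit, quasi-likelihood test, Benjamini-Hochberg adjustment over all peaks, called under 0.05). The filter removed no peak, and depth was 2618483 to 12775606 reads in peaks. CPM are counts per 1e+06 reads in peaks, with library totals adjusted by the TMM factors. Contrasts were BXD75 minus B6, BXD75 minus D2, B6 minus D2 and BXD75 minus the founder midpoint on the log2 scale. Intervals and floors cover counting error only. In simulated counts 67 of 100 peaks with a 2-fold change were recovered for BXD75 minus B6 and 63 for BXD75 minus D2, 100 and 98 of 100 with a 4-fold change, with 12 and 7 false calls.

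Named peaks were, per comparison and direction, the 8 promoter peaks (Gm and Rik symbols left out) and 3 other peaks with the largest difference among calls without overlap and at least 5 CPM in the higher strain, the 5 largest outside the founder range, the called list members, 4 zinc finger genes per direction and the leading peaks that go against their window. The equal-width set was added after its values were seen. The peaks, lists and tests were chosen with earlier results of these data known. Replicate numbers did not pair the libraries: 3 of 9 same-numbered pairs had a correlation of deviations over 0.1 (range -0.737 to 0.311). Alternatives were DESeq2 1.42.0, other scalings and filters, thinned libraries, a replicate block, peaks of both genomes, leaving out each library, other windows and, added after seeing the data, equal width. Hepatocyte peaks were matched at 50% reciprocal overlap with bedtools 2.31.1. Of 82 named promoter peaks, 53 held a whole RefSeq promoter window. Input libraries were not used here, and 2 of the named peaks are not reported here.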

Additional observations from a re-analysis of the deposited data

Results flagged for a closer look

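The 75 named calls against D2 included 11 promoter peaks at which the cell types went opposite ways. There every BXD75 cardiomyocyte library lay on one side of the D2 libraries of its cell type and every BXD75 hepatocyte library on the other side. The difference between the cell types was not tested. In cardiomyocytes alone, BXD75 lay beyond all D2 libraries at 26.6% of all peaks. The share of all matched peaks that go opposite ways is not given here, so the count has no background. At Rhov, which encodes an atypical small GTPase, the log2 difference BXD75 minus D2 was -1.64 in cardiomyocytes and 2.37 in hepatocytes. The other 10 were higher than D2 in cardiomyocytes and lower in hepatocytes. Among genes of fatty acid oxidation they were Echs1 (0.71 and -0.40), Etfb (0.31 and -0.15), Etfdh (0.57 and -0.49) and Pdk4 (0.65 and -0.38). Of the respiratory chain they were Uqcrc2 (0.34 and -0.64), Uqcrfs1 (0.50 and -0.44), Cox6c (0.37 and -0.48) and the peak that Ndufs1 shares with Eef1b2 (0.36 and -0.54). Cbx5 (0.50 and -0.35) and Zfp384 (1.32 and -0.64) were the remaining 2, each pair giving cardiomyocytes first. The Echs1 and Zfp384 intervals were 1.55 and 2.81 times wider on the reference genome, measured in the cardiomyocyte list.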

How the results depend on the processing

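Counts against B6 and D2, founder-differential peaks with a called midpoint nearer B6 and D2, B6 and D2 windows, and peaks outside the founder range were 100, 1273, 172, 41, 188, 2 and 76. Leaving out 1 library at a time gave 66 to 106, 382 to 6091, 104 to 625, 29 to 53, 41 to 382, 1 to 4 and 42 to 483. At 1 depth they were 35, 419, 95, 22, 47, 4 and 17. DESeq2 called 155 against B6 and 2246 against D2, with 287 midpoint calls nearer B6, 288 and 1 windows and 139 peaks outside the range. The fit without BXD87 gave 659 against D2 and 104 B6 windows. Peaks of both genomes alone gave 17 against B6, 9 midpoint calls nearer D2, 0 D2 windows and 28 outside the range. At equal width there were 745 against D2, 7 midpoint calls nearer B6 and 122 B6 windows, the same fit with 22196 peaks. The replicate block, with numbers that do not pair the libraries, gave 79 against B6, 601 against D2, 102 and 4 windows and 49 outside the range. D2 windows were 1 with the stricter filter and with 2 Mb windows, and 0 with 10 Mb windows or at 90% on 1 side. B6 windows were 114 with 5 markers, 27 (and 114 midpoint calls nearer B6) at a founder difference of 2-fold, and 42 with markers chosen in hepatocytes. Hepatocytes, stem cells and germ cells in place of cardiomyocytes gave 94, 94 and 93 B6 and 56, 33 and 16 D2 windows. The cause was not tested for changes other than those with fewer peaks or libraries. Members called over the lists were 60 with the main scaling and with DESeq2's size factors. Of 1771 values of the 108 named calls, 1492 kept their call, 279 lost it and 0 reversed. Thinning to the shallowest D2 library, single libraries and interval width each moved the D2 counts.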
